A study of Mus musculus with 2744 samples.

Results

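A set of 7 genes of the Nodal pathway was followed through the differentiation of mouse embryonic stem cells into motor neurons. The genes were Nodal, Lefty1, Lefty2, Tdgf1, Gdf3, Smad7 and Acvr2b, chosen by name, which makes 7 of the 23968 genes in the tables, and all 7 were present and passed the filter on low counts. The study sequenced messenger RNA of 2744 single cells in a modified CEL-seq protocol, in which a barcode is added at reverse transcription and the cell's RNA is amplified by transcription. Cells were dissociated from embryoid bodies on Days 2, 3, 4, 5 and 6 and sorted 1 per well. At Day 6 there were also cells labelled eGFP++, in both experiments, and eGFP+, on 1 plate of the main experiment. All groups came from mouse embryonic stem cells differentiated towards motor neurons, and the labels name neither the cell line nor the reporter behind the eGFP signal. The series has 2 experiments, called main and pilot, which it describes as biological replicates.

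Nodal is a secreted ligand of the TGF-beta superfamily that binds activin receptors together with an EGF-CFC co-receptor and acts through SMAD2 and SMAD3. Its targets include its own gene and those of its secreted antagonists, Lefty1 and Lefty2, so that the pathway holds both a positive and a negative loop. In the early mouse embryo the pathway keeps the epiblast pluripotent and patterns mesoderm and endoderm, and differentiation into neural tissue proceeds where it is low.

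Reads were summed over the kept cells of each group and experiment, since cells of 1 culture are not replicates, and n is therefore 2 sums per group. A sum held at least 39 cells and 16370502 to 100972780 gene reads, and 2448 of the 2744 cells, those with at least 500 detected genes, were kept. Levels are in CPM, the gene's reads scaled to a fixed total of gene reads in the sum. CPM were not compared between genes. Without molecular identifiers, amplification copies are part of the counts: the median over detected genes was 13 reads per gene in main cells and 73 in pilot cells. All intervals cover counting error only. Median detected genes per cell ranged from 1404 to 4439 among the sums, and spike-in reads took 1.77% to 13.1%. Lower levels in a sum can come from fewer cells with the transcript or from less of it per cell, and shares of cells are given below for that reason. Cells of Day 2 had the stem cell and epiblast markers (Pou5f1, Nanog, Fgf5, Otx2, Utf1, Zfp42 and Dnmt3b) at a summed 1920.1 CPM (main) and 1559.5 CPM (pilot). The motor neuron markers (Mnx1, Isl1, Lhx3, Slc18a3 and Chat) reached a summed 1043.9 and 1292.2 CPM in eGFP++ cells, against 394.97 and 251.2 CPM in unselected Day 6 cells.

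In GENCODE M21 (GRCm38, which is mm10) Lefty2 and Lefty1 are neighbours on the plus strand of chromosome 1, at 180893108 to 180899103 and 180935022 to 180938400. Nodal lies on chromosome 10 (61417972 to 61425338, plus strand) and Gdf3 on chromosome 6 (122605403 to 122610087, minus strand). Tdgf1 (110939603 to 110946158, minus strand) and Acvr2b (119402118 to 119434995, plus strand) lie on chromosome 9. All 7 are protein-coding genes. No other annotated gene overlaps them except Gm47320, an antisense gene at Acvr2b. Because the protocol reads transcript ends, the last 500 bases of each member's longest coding transcript were compared with all other transcripts in windows of 50 bases. Of the windows of Lefty1, 11 (2.44%) also occurred in Lefty2, while none of those at the end of Lefty2 occurred elsewhere. Of the windows of Gdf3, 42 (9.31%) were found in other genes, among them Pbdc1 and Dhx37, and the other 4 members shared none. Reads from these windows of Lefty1 and Gdf3 could not be assigned to 1 gene by sequence.

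The promoters of Nodal and Tdgf1 are shown because both genes are at their highest on Day 2 and had few or no reads on Day 6. They are the 250 bases before the RefSeq start on GRCm38.p6, 5′ to 3′ on the gene's own strand, at chr10:61417722-61417971 for Nodal and chr9:110946159-110946408 (minus strand) for Tdgf1. Capitals mark matches on either strand to the SMAD box CAGAC, a loose pattern for the core bound by the SMAD partner FOXH1, AATNNACA, and the octamer of OCT4, ATGCNAAT. Any base was accepted at N.
Nodal: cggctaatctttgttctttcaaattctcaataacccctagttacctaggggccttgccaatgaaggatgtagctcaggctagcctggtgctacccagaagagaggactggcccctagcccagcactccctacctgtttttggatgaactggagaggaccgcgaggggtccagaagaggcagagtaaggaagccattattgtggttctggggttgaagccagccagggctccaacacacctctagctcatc
Tdgf1: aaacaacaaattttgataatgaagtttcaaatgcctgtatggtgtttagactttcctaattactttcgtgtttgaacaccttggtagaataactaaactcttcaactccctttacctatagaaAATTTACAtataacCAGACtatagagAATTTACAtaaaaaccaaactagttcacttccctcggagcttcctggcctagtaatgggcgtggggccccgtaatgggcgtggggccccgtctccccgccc
The Tdgf1 window held 2 matches to the loose FOXH1 pattern, both reading AATTTACA, and 1 SMAD box between them, with no overlap. A stricter form of the FOXH1 site was not searched. The Nodal window held none of the 3 motifs. A window was at hand for 3 of the 7 members, and not for Lefty1, Lefty2, Gdf3 and Smad7. That of Acvr2b, whose level was lowest on Day 2, is not printed. It also held 1 SMAD box, with no match to the other motifs, and G and C made up 72.8% of it. Of 32851 promoter windows of this length, 10.9% held the loose FOXH1 pattern, 42.2% a SMAD box and 2.86% the octamer. The bases G and C made up 53.2% of the Nodal and 42% of the Tdgf1 window, against a median of 52.4% over all windows. These matches describe the letters, and binding was not measured.

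Both ligands were highest on Day 2. Nodal had 121.4, 34.3, 16.1, 1.47 and 0 CPM on Days 2, 3, 4, 5 and 6 of the main experiment, and 78.2, 62.7, 17.9, 7.74 and 0.872 CPM in the pilot experiment. It was lower on each later day in both experiments, and the only Day 6 reads were 56 reads of 1 pilot cell. Of the pilot reads 76.6% on Day 4 and 59.3% on Day 5 came from 1 cell each, without which the levels were 4.24 and 3.19 CPM. With 3 reads set as the floor of a sum, the main Day 6 level was 2325-fold lower in reads than on Day 2. In the pilot experiment it was 89.7-fold lower. Reads include amplification copies, with a median of 20 Nodal reads per main Day 2 cell that held any. The value with the floor is therefore no lower bound for the transcript. Nodal had no read in any main cell of Day 6, which allows a share of up to 0.847%. The main plates of Day 3 lay at 14.5 to 57.7 CPM and those of Day 2 at 102.7 to 142.7 CPM, without overlap, while the pilot plates of these days overlapped, at up to 89.2 CPM on Day 3 and from 67.5 CPM on Day 2. The main Day 3 plate at 57.7 CPM had a Nodal read in only 1.28% of its 78 cells.

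Gdf3, a related ligand of stem cells that acts with the same co-receptor and also restrains BMP signalling, was lower after Day 2 but did not disappear. On Days 2 to 6 Gdf3 stood at 159.4, 23.8, 7.75, 2.57 and 8.98 CPM (main) and 102.5, 54.7, 8.06, 16.3 and 2.6 CPM (pilot). The order of Days 4, 5 and 6 differed between the experiments, with Day 5 lowest in the main and Day 6 lowest in the pilot experiment. Against Day 2, Day 6 was 17.7-fold lower in the main and 39.4-fold lower in the pilot experiment. Its share of cells at Day 6 was 16.9% and 15.5% with 1 or more reads, against 81.7% and 32% on Day 2.

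Tdgf1, which encodes the EGF-CFC co-receptor Cripto, was low from Day 3 on in the main experiment and from Day 4 on in the pilot experiment. It had 424.7, 3.77, 0.922, 0.103 and 0.0522 CPM on Days 2 to 6 of the main experiment, where the last value stands for 3 reads. In the pilot experiment it had 557.2, 74.5, 0.0498, 0.845 and 0.0311 CPM. Day 3 was 112.6-fold lower than Day 2 in the main and 7.48-fold lower in the pilot experiment, and the plates of the 2 days did not overlap in either. The main plates reached at most 6.74 CPM on Day 3, against 300.7 CPM or more on Day 2. In the pilot experiment the Day 3 plates lay at 57 and 89.5 CPM and the Day 2 plates at 549.5 and 562.3 CPM. On Day 3 the co-receptor was thus found in 6.64% of main and 20.3% of pilot cells, against 91.4% and 58.7% on Day 2.

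Acvr2b, a type II receptor for activins, Nodal and related ligands, had its lowest level on Day 2. It had 22, 43.3, 72.1, 56.6 and 49.5 CPM on Days 2 to 6 of the main and 23.2, 33.3, 63.4, 64.2 and 78.3 CPM in the pilot experiment. The lowest sum was that of Day 2 in each experiment, and Day 6 was 2.25-fold and 3.38-fold above it. Main plates lay at 35.8 to 69.5 CPM on Day 6 and at 13 to 26.1 CPM on Day 2. The Day 3 plates, at 15 to 51.3 CPM, overlapped those of Day 2. In the pilot experiment the Day 6 plates lay at 33.8 and 138.6 CPM and the Day 2 plates at 14.1 and 29.2 CPM.

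**Figure D1:**
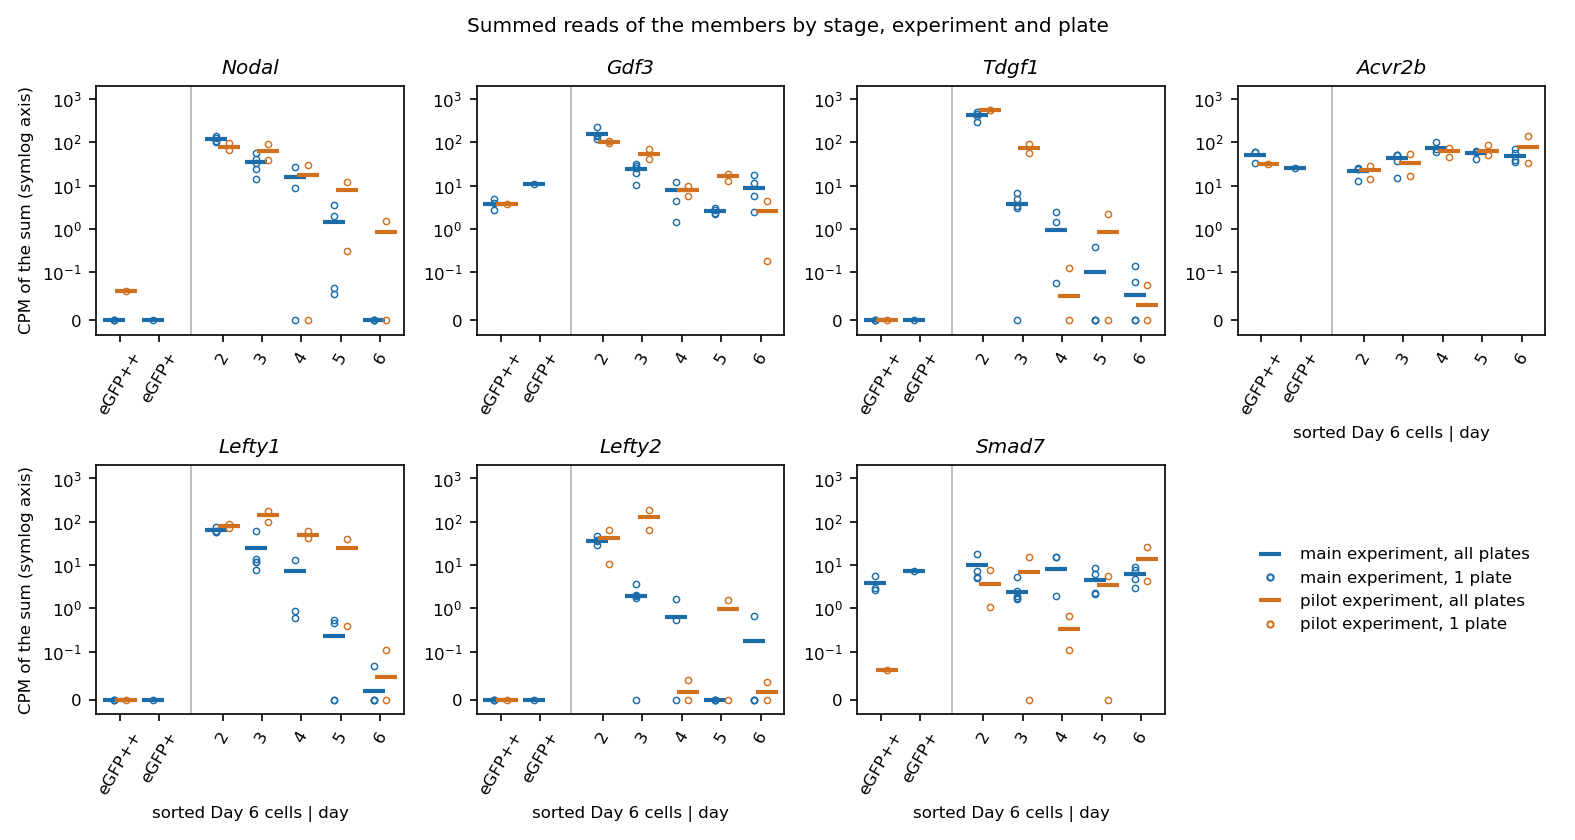
Summed CPM of each member (vertical axis, symlog, linear below 0.1 CPM) by stage, with sorted Day 6 cells left of the line and Days 2 to 6 right of it. Dashes are sums over all kept cells of an experiment, circles are single plates. Tdgf1 lies at 300.7 CPM or more on every Day 2 plate and at 0.141 CPM or less on every Day 6 plate, while Acvr2b stays between 13 and 138.6 CPM on all plates.

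The 2 Lefty genes, which encode secreted antagonists of Nodal and its co-receptors, followed Nodal in the main experiment and were highest on Day 3 in the pilot experiment. Lefty1 had 63.1, 25.3, 7.40, 0.235 and 0.0174 CPM on Days 2 to 6 of the main experiment and 80.4, 143.3, 50.4, 25.1 and 0.0467 CPM in the pilot experiment. The Day 6 sums held 1 and 3 reads. Of the Lefty1 reads of pilot Day 5, 98% came from 1 cell. Without that cell the Day 5 sum was 0.528 CPM.

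Lefty2 had 35.5, 1.92, 0.650, 0 and 0.174 CPM on Days 2 to 6 of the main and 42.5, 129.2, 0.0166, 0.961 and 0.0156 CPM in the pilot experiment. On Day 3 it was 18.5-fold lower than on Day 2 in the main experiment and 3.04-fold higher in the pilot experiment. The pilot values rest on few cells: 5 of 69 cells on Day 3 and 6 of 75 cells on Day 2 held a read, and 89.5% of the Day 2 reads came from 1 of them. Among main cells a read was found in 3.55% on Day 3 and 41% on Day 2. The experiments therefore differed in direction for Lefty2 between these days, and likewise for Lefty1, at 2.49-fold lower and 1.78-fold higher.

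Smad7 (chromosome 18, 75367529 to 75395935, plus strand), an intracellular inhibitor that blocks type I receptors of the whole TGF-beta superfamily, showed no order by day that both experiments shared. It had 10.2, 2.41, 8.05, 4.64 and 6.13 CPM in the main and 3.71, 7.11, 0.332, 3.41 and 13.6 CPM in the pilot experiment on Days 2 to 6. It was found in at most 19.1% of the cells of a sum, and 82.6% of its reads in pilot Day 2 cells came from 1 cell. Day 6 was 1.66-fold lower than Day 2 in the main and 3.67-fold higher in the pilot experiment.

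Day 6 was then tested against Day 2, the whole course, with edgeR's quasi-likelihood test on the 12 sums of the groups present in both experiments and the experiment as a term. Tdgf1 fell by 13.54 ± 2.20 on the log2 scale (± approximate SE, adjusted p = 0.0262 over 16080 genes) and Lefty1 fell by 11.80 ± 1.84 (adjusted p = 0.0222). These were 2 of the 7 members, against 0.249% of all genes called lower and 0.585% called higher in this comparison. The members were chosen with earlier results of these data known, so these shares are no test of the set. The other 5 did not pass: Nodal at -8.82 ± 1.87 (adjusted p = 0.0612), Gdf3 at -4.58 ± 1.05 (adjusted p = 0.0882), Lefty2 at -8.53 ± 3.02 (adjusted p = 0.273), Acvr2b at 1.44 ± 0.58 (adjusted p = 0.321) and Smad7 at 1.0 ± 2.11 (adjusted p = 0.855), all by edgeR with Benjamini-Hochberg adjustment. Each SE is the size of the fitted change divided by the square root of the test's F statistic. Fitted changes of members at 3 reads or fewer on Day 6, and their SEs, depend on the prior count of the fit and are no bound. The median fitted change of the 7 members was -8.53 and that of all tested genes 0.17.

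The calls changed when a sum was left out. Without the main sum of Day 2 only Lefty1 passed, and without any of the other 3 sums of these days none of the 7 did. With DESeq2 or spike-in scaling 5 passed, all lower (Nodal, Lefty1, Lefty2, Tdgf1 and Gdf3). Acvr2b also passed, as higher, with plates as the unit or with the number of cells holding a read in place of reads. The shares of all genes called lower were 4.55% with DESeq2, 12.6% with spike-in scaling, 9.4% with plates and 15.8% with cells holding a read. Those called higher were 8.1%, 0.517%, 10.4% and 14.9% in the same order. Spike-in scaling moved the median change of all genes to -2.05. Acvr2b, at 1.44 in the main scaling, and Smad7, at 1.0, then stood at -0.80 and -1.26. On that scale 84 genes rose and 2051 fell, against 94 and 40 with the main scaling.

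**Figure D2:**
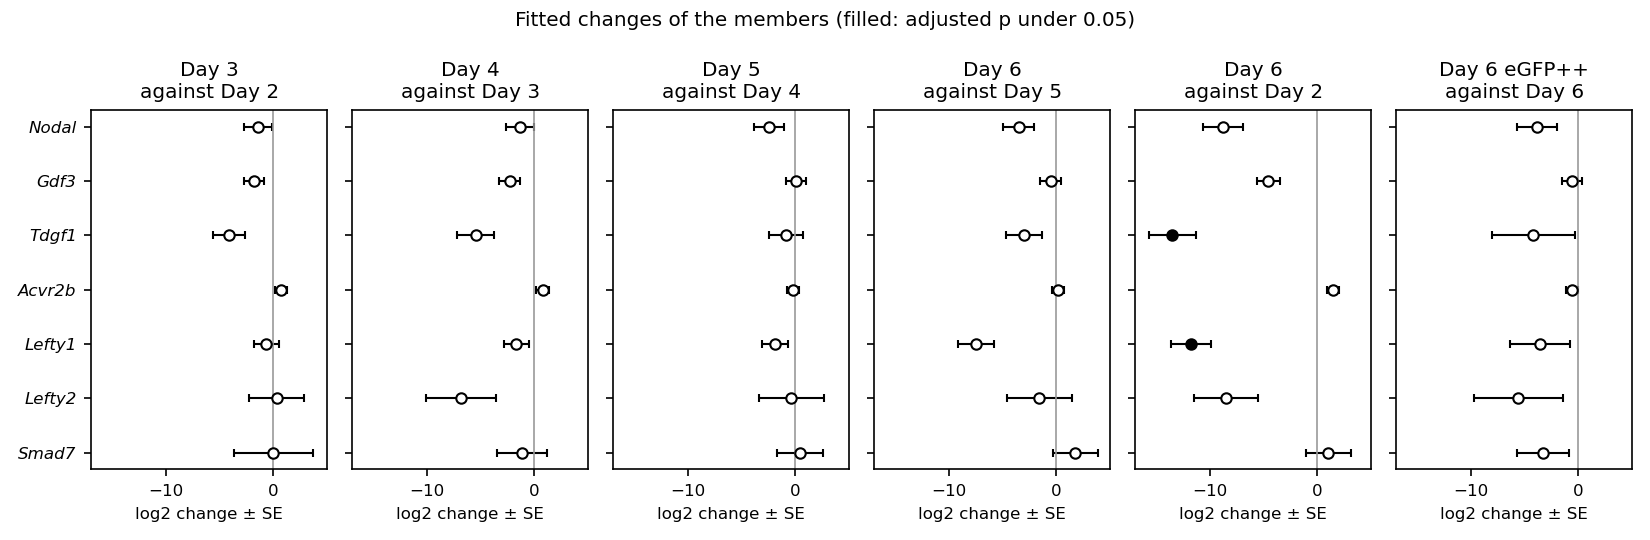
Fitted log2 change with an approximate standard error derived from the F statistic (horizontal axis) of each member in the 6 comparisons, from edgeR on sums of 2 experiments. Filled points passed an adjusted p of 0.05. The only 2 filled points are Tdgf1 at -13.54 and Lefty1 at -11.80 for Day 6 against Day 2.

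Adjacent days were compared to see when the members moved. None of the 7 members passed in any of these 4 comparisons with edgeR, where 0.0498% of all genes were called higher and 0% lower for Day 3 against Day 2 and 0% in either direction for the other 3. At an unadjusted p under 0.05 there were 1, 2, 0 and 2 members for Days 3, 4, 5 and 6, each against the day before. Tdgf1 had fitted changes of -4.14 ± 1.52 from Day 2 to Day 3 and -5.48 ± 1.75 from Day 3 to Day 4 (both edgeR adjusted p = 1). Gdf3 had -1.84 ± 0.95 and -2.32 ± 0.96 over the same intervals. Nodal and Lefty1 had -3.53 ± 1.45 and -7.51 ± 1.65 from Day 5 to Day 6. The Lefty1 value rests on few cells, since 98% of its pilot Day 5 reads came from 1 cell and main Day 5 held 16 reads. The fitted change from Day 2 to Day 3 was -1.42 ± 1.32 for Nodal and -0.66 ± 1.14 for Lefty1. For Lefty2 it was 0.30 ± 2.55, with the experiments on opposite sides.

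Day 6 cells sorted as eGFP++ were compared with unselected Day 6 cells to see whether the members differed in the population rich in motor neurons. Lefty1, Lefty2 and Tdgf1 had no read in the main or the pilot eGFP++ cells, which allows shares of up to 1.06% and 7.69%, and Nodal had 1 read in 1 pilot cell. Unselected Day 6 cells held 1 to 10 reads of Lefty1, Lefty2 and Tdgf1 per sum, so that no difference was detectable for these genes at this depth. Acvr2b was at 52.4 CPM in main and 31.8 CPM in pilot eGFP++ cells, against 49.5 and 78.3 CPM in unselected cells, with a fitted change of -0.61 ± 0.58 (edgeR adjusted p = 0.77). Of the pilot eGFP++ reads of Acvr2b, 76.6% came from 1 cell, without which the level was 7.64 CPM. Gdf3 was at 3.85 and 3.73 CPM in eGFP++ cells and 8.98 and 2.6 CPM in unselected cells. None of the 7 members passed with edgeR, and none had an unadjusted p under 0.05, while 0% of all genes were called higher and 0.0311% lower.

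Cells sorted as eGFP+, 83 cells of 1 plate without a replicate, had no read of Nodal, Lefty1, Lefty2 or Tdgf1, which allows a share of up to 3.61% for each. They had 25 CPM of Acvr2b, against 49.5 CPM in unselected main cells, and 11.1 CPM of Gdf3, against 8.98 CPM. Of the Gdf3 reads of eGFP+ cells, 76.6% came from 1 cell.

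Shares of cells were then compared at an equal number of reads, with each cell thinned to 10000 reads. On Day 3, 3.55% of main cells held Tdgf1 (Wilson interval 2.17% to 5.78%), against 75.5% on Day 2 (70.8% to 79.7%). In the pilot experiment these shares were 11.6% (5.99% to 21.2%) and 47.3% (36.3% to 58.5%). Both experiments thus showed fewer cells with the co-receptor on Day 3, with intervals that did not meet. Such intervals treat cells as independent and leave out the spread between plates. Whether they meet is therefore no test of the days, here and below. Without thinning, main Day 3 plates held Acvr2b in 12.8% to 65.4% of their cells. For Nodal, the main shares were 8.29% on Day 3 and 34.6% on Day 2, while the pilot shares were 14.5% (8.07% to 24.7%) and 10.8% (5.58% to 19.9%), with intervals that overlapped. Acvr2b was found in 15.5%, 20.6%, 27%, 29.4% and 17.5% of main cells on Days 2 to 6. In pilot cells it was found in 5.41%, 8.70%, 14%, 20% and 28.2% on these days. The share of cells with Acvr2b was thus higher in value on Days 3, 4 and 5 than on Day 2 in both experiments. The intervals did not meet for main Day 4 (21.6% to 33.1%) and Day 5 (24.8% to 34.6%), against 12.1% to 19.6% on Day 2, but met for main Day 3 (17% to 24.7%). The pilot intervals of Days 3, 4 and 5 all met that of Day 2. On Day 6 it lay above Day 2 beyond the intervals in the pilot experiment only. Detected genes per cell also differed between these groups, at a median of 2310.5 genes (Day 6) and 4439 genes (Day 2) for main cells and of 3361 and 1810 genes for pilot cells, and their part in the shares was not tested.

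**Figure D3:**
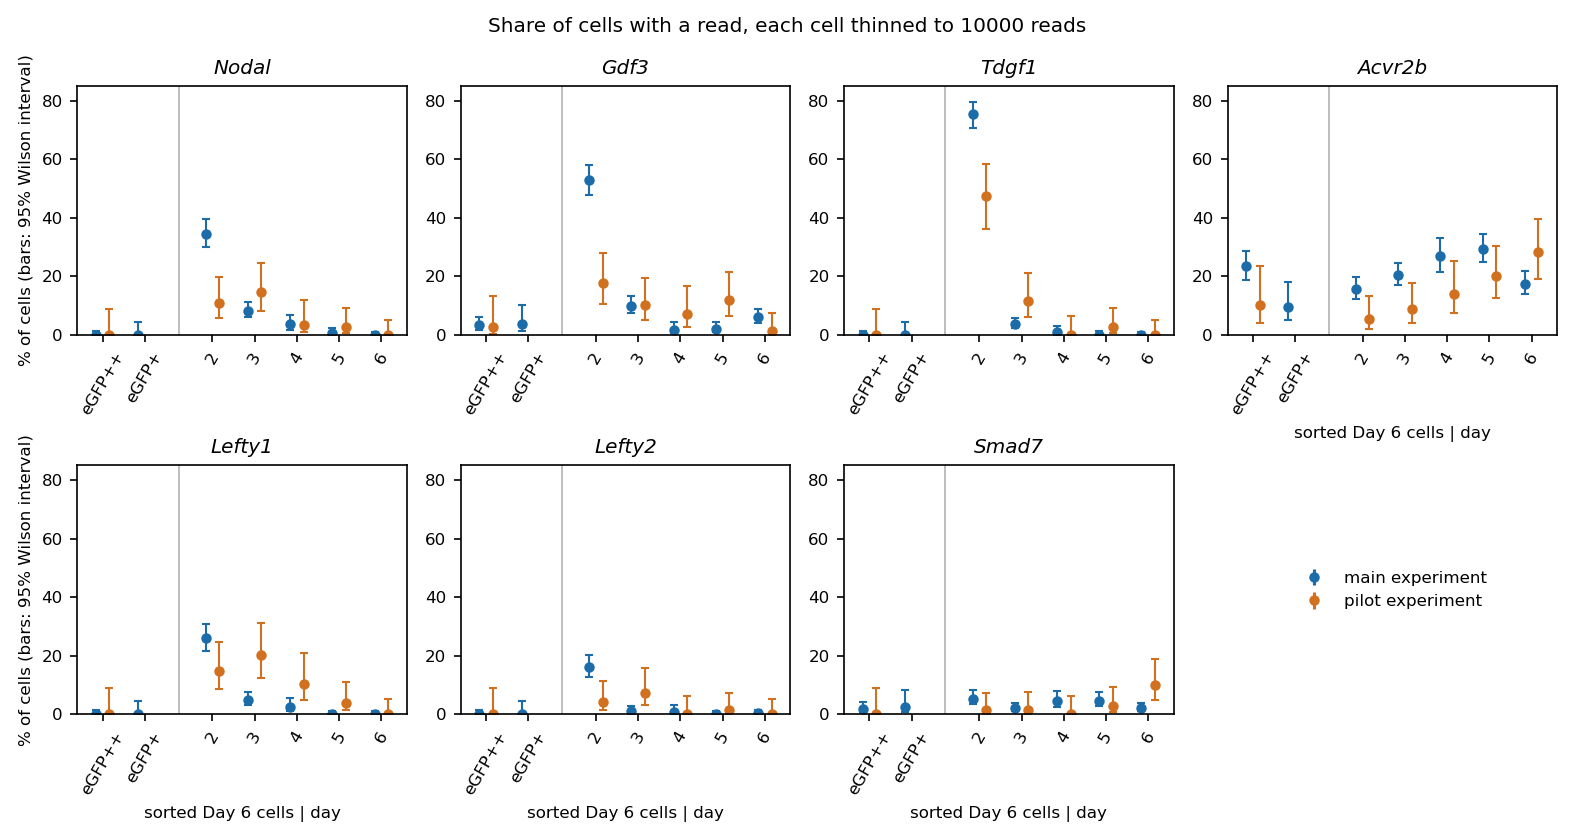
Share of cells with at least 1 read of each member (vertical axis, %) after thinning to 10000 reads, by stage and experiment, with 95% Wilson intervals for counting error. Tdgf1 is found in 3.55% of main and 11.6% of pilot cells on Day 3, against 75.5% and 47.3% on Day 2.

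Most Day 2 cells of the main experiment held at least 1 of the 5 members that were high on that day (Nodal, Lefty1, Lefty2, Tdgf1 and Gdf3). These 5 were picked from the same data for that reason, so a larger share of later cells with none follows in part from the choice. After thinning 8.17% of the cells had none of them, 31.5% had 3 or more and 9 cells had all 5. Thinning equalised reads only, and the detected genes per cell given above still differed between days and experiments. Cells with none made up 75.8% on Day 3, 92% on Day 4, 97.2% on Day 5 and 93.8% on Day 6. In the pilot experiment cells with none made up 39.2%, 60.9%, 80.7%, 84% and 98.6% on Days 2 to 6, and 10.8% of Day 2 cells had 3 or more.

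**Figure D4:**
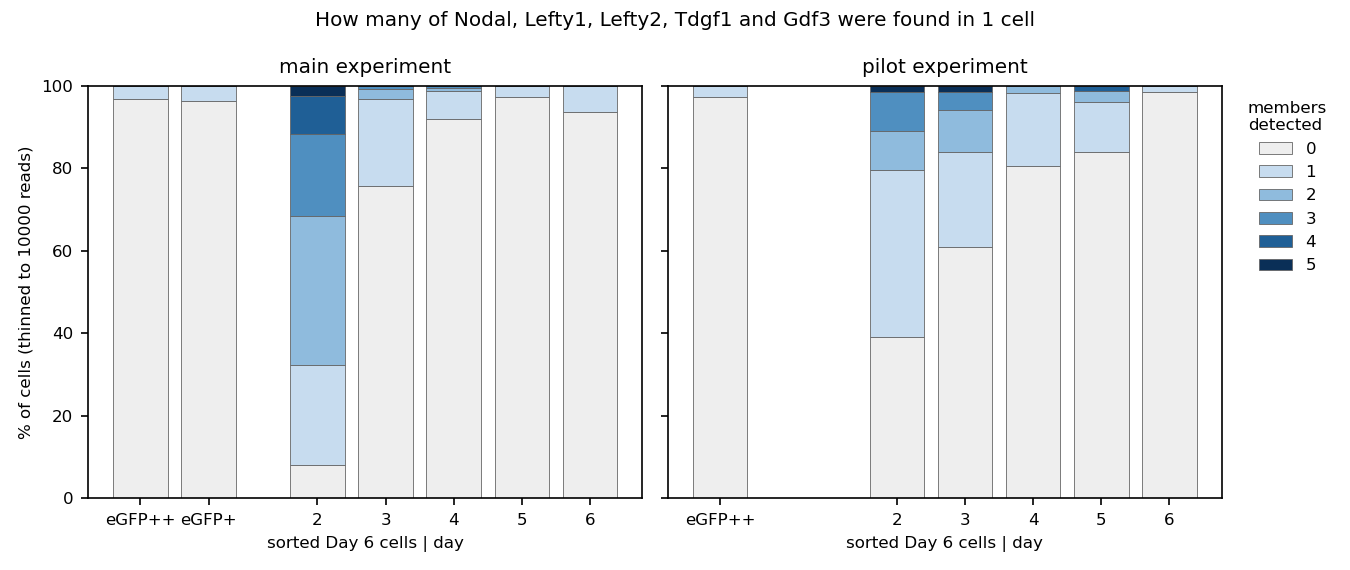
Percentage of cells (vertical axis) by the number of members detected among Nodal, Lefty1, Lefty2, Tdgf1 and Gdf3, after thinning to 10000 reads, for each stage of the main and the pilot experiment. Cells without any of them are 75.8% of Day 3 and 8.17% of Day 2 cells (main), and 60.9% of Day 3 and 39.2% of Day 2 cells (pilot). The members counted were picked from the same data as high on Day 2.

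The members were only loosely linked among single Day 2 cells, again thinned to 10000 reads. Across the main cells Spearman's rho between pairs of members ran from -0.11 to 0.21, as a description with no test, since the cells share cultures, plates and depth. Thinning left Lefty1 in 25.9% of these cells, against 52.6% of kept cells with all reads, and its part in rho was not tested. The 2 Lefty genes were among the pairs with the highest rho, 0.21. Of 57 cells with Lefty2, 47.4% held Lefty1, against 21.8% of the cells without it (68% and 43.3% without thinning), and the cells with Lefty2 had fewer detected genes (median 4254 against 4488.5). Lefty2 with Tdgf1 also had a rho of 0.21 and Lefty1 with Tdgf1 one of 0.18. For Nodal and its antagonist the link was weaker after thinning: Lefty1 was found in 30.9% of the cells with Nodal and 23.3% of those without it (62.3% and 41.2% without thinning). Their rho was 0.08, with more detected genes in the cells with Nodal (median 5097 against 4121.5). In 74 pilot cells the highest rho was 0.31, between Nodal and Tdgf1, which were found together in 7 cells.

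The few later cells with these genes were examined for stem cell and germ layer markers, at 3 or more reads and without thinning. Among main Day 3 cells with Nodal, 69.4% of 49 held Pou5f1 (OCT4, a core pluripotency factor), against 48% of the others. For Lefty1 these shares were 66% of 53 and 48.2% of the others. For Tdgf1 they were 78.9% of 19 and 49.1%. Among the members the share was lower only for cells with Smad7, at 45.5% of 22 against 50.7% of the others. The cells with Nodal had a median of 5009 detected genes and the others 4035, and the part of this depth in the difference was not tested. For Lefty1 these medians were 4972 and 4014, and for Tdgf1 they were 3657 and 4155. Dnmt3b was found in 67.3% of the cells with Nodal, 69.8% of those with Lefty1 and 52.6% of those with Tdgf1, against 47.5%, 46.9% and 49.6% of the others. The neural gene Sox1 was found in 34.7%, 49.1% and 15.8% of these cells, against 40.2%, 38.2% and 40.7% of the others. Cells with Acvr2b also held Pou5f1 more often in value, at 60% against 43.4%. The same held for Dnmt3b (60% against 42.1%), Sox1 (53.9% against 28.9%) and Foxa2 (11.7% against 2.89%), but not for Sox17 (0.556% against 0.826%). Cells with Acvr2b had a median of 4798 detected genes and the others 3531. Of the other 6 markers read (Otx2, Pax6, T, Eomes, Sox17 and Foxa2), none exceeded 20.8% of the cells with Nodal, Lefty1 or Tdgf1. The endoderm factor Sox17, which had a read in 0.711% of main and 1.45% of pilot Day 3 cells, was found at 3 reads in none of those with Nodal, Lefty1, Lefty2 or Tdgf1. It was found in 2 of 83 main Day 3 cells with Gdf3 (2.41%), against 0.295% of the others, and in 1 of 180 with Acvr2b. With so few cells a difference was not detectable. In the pilot experiment the Day 3 cells with Nodal were 12 and those with Lefty1 were 16, of which 50% and 43.8% held Pou5f1, against 38.6% and 39.6% of the others.

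The genes whose sums followed each member most closely were named by Pearson's r of log2(CPM + 1) over the 12 sums, after the mean of each experiment was taken off, among 9468 genes with at least 20 CPM in 1 sum. For Nodal these were Dppa5a (r = 0.997), Dppa3 (0.973) and Pou5f1 (0.973), of which Dppa5a encodes an RNA-binding protein of stem cells. For Lefty1 they were Actn3 (0.984), F2rl1 (0.981) and Dppa3 (0.977). Lefty2 was closest to Dennd2c (0.966), 2610037D02Rik (0.965) and Cpsf4l (0.948). Tdgf1 was closest to Phc1 (0.975), a Polycomb subunit, Mep1b (0.972) and Pml (0.963). For Gdf3 they were Mkrn1 (0.963), the FGF-responsive factor Etv5 (0.961) and Trap1 (0.957). Acvr2b was closest to Ubl5 (0.975), Igf1r (0.936), which encodes the IGF1 receptor, and Mpnd (0.930). For Smad7 the values were lower, with 2810025M15Rik (0.917), Polr3f (0.901) and Aimp1 (0.887). Between members r was 0.964 for Nodal with Lefty1, 0.940 for Lefty2 with Tdgf1 and for Tdgf1 with Gdf3, and -0.823 for Tdgf1 with Acvr2b. The sums share libraries and days, and these values carry no test.

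The rest of the pathway was read from hand-written lists that include the members. Of 9 ligands 7 could be tested for Day 6 against Day 2 and none passed. Their median fitted change was 1.21, against 0.17 for all genes, but the experiments differed. The median log2 ratio was -2.8 in the main (3 higher, 5 lower) and 2.77 in the pilot experiment (4 higher, 2 lower). Summed over the 9 ligands, the level was 283.3 and 180.8 CPM on Day 2 and 14.1 and 13.5 CPM on Day 6. Ligands other than Nodal and Gdf3 were at 1.14 CPM or less on Day 2 in both experiments. Tgfb2, a TGF-beta ligand, was at 2.26 and 7.75 CPM on Day 6 and without reads on Day 2. Gdf11, a ligand that patterns the spinal cord and limits neuron production, was at 0.644 and 0.888 CPM on Day 6, against 0.0269 and 0 CPM on Day 2. Neither passed, with edgeR adjusted p of 0.291 for Tgfb2 and 0.319 for Gdf11.

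Of 8 receptors and co-receptors 1 fell, which was Tdgf1, and the median of the 8 was 0.47. Tgfbr1, the type I receptor for TGF-beta, was at 50.6 and 61.1 CPM on Day 6 and at 9.73 and 10.8 CPM on Day 2, with a fitted change of 2.34 ± 0.69 (edgeR adjusted p = 0.17). Acvr1b, the type I receptor through which Nodal and activin signal, did not exceed 3.39 CPM in any sum. Of 6 extracellular inhibitors 4 were tested and 1 fell, which was Lefty1. Cer1, another secreted antagonist, stayed at 0.108 CPM or less in every sum. The proteases that can process the Nodal precursor, Furin and Pcsk6, did not pass (edgeR adjusted p of 0.711 and 0.684). Pcsk6 was at 7.29 and 33.1 CPM on Day 6, against 7.56 and 0 CPM on Day 2.

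None of the 7 transducers and none of the 8 intracellular inhibitors passed, at medians of -0.57 and 0.64. Foxh1, the DNA-binding partner of SMAD2 that mediates Nodal autoregulation, had no reads in either experiment on Day 6, against 3.86 and 1.08 CPM on Day 2 (edgeR adjusted p = 0.31). Tgif1, a corepressor of SMAD2, was at 14.9 and 9.79 CPM on Day 6 and 109.6 and 84.8 CPM on Day 2, with a fitted change of -3.06 ± 0.90 (edgeR adjusted p = 0.17). Smad2, which carries the signal to the nucleus, was at 25.9 and 32.4 CPM on Day 6, against 31.2 and 53.4 CPM on Day 2. Among the inhibitors, Skil, whose product SnoN binds SMADs and whose gene is itself a target, was at 19.8 and 63.2 CPM on Day 6, against 109.5 and 123.9 CPM on Day 2 (fitted change -1.87 ± 0.56, edgeR adjusted p = 0.179). Ppm1a, a phosphatase of SMAD2 and SMAD3, had a fitted change of -1.24 ± 0.42 (edgeR adjusted p = 0.242).

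Of 12 targets of the pathway 11 were tested and 1 fell, again Lefty1, at a median of -1.87 for the list. Eomes, a T-box factor of early mesoderm and endoderm, was at 0.731 and 0 CPM on Day 6, against 2.65 and 13.2 CPM on Day 2 (edgeR adjusted p = 0.355). The 5 mesendoderm markers summed to 0.122 to 19 CPM over all sums and the 5 endoderm markers to 0 to 14.3 CPM in all other sums than that of pilot Day 4, at 20 CPM. Day 4 had the highest endoderm sum of Days 2 to 6 in both experiments, at 12.3 CPM in the main, and none of the 5 endoderm genes passed in any comparison. For the mesendoderm markers the highest day was Day 4 in the main and Day 2 in the pilot experiment. Each of these sums came mostly from 1 gene. On main Day 4 Foxa2 gave 18.9 of 19 CPM, and T, Mixl1 and Gsc had no reads. On pilot Day 2 Eomes gave 13.2 of 17.3 CPM. The summed stem cell and epiblast markers, of which Dnmt3b and Pou5f1 gave the most on Day 2, were lower on each later day: the sum was 1920.1, 174.5, 67.7, 19 and 9.37 CPM on Days 2 to 6 of the main and 1559.5, 520, 159.1, 96.1 and 30.5 CPM in the pilot experiment. Single markers did not all follow the sum. Main Fgf5 stood at 0.198, 0.314 and 1.06 CPM on Days 3 to 5, and 2 of the 7 were higher than on the day before on each of main Days 4, 5 and 6, as were 3 of 7 on pilot Day 5. Of these 7 markers Dnmt3b and Zfp42 fell for Day 6 against Day 2, with log2 changes of -7.87 ± 0.92 (edgeR adjusted p = 0.00415) and -6.21 ± 0.98 (edgeR adjusted p = 0.0222). The part of cells with these markers in the levels of the members was not tested.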

How the data were processed

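The submitters' processing notes name mm10, TopHat2 2.1.1 and HTSeq 0.6.1; their steps are not given here. The authors deposited 35 tables of read counts per gene and cell, not normalised, 1 per plate, with 23968 genes, 92 spike-ins, 5 summary lines (34.9% of reads) and 27 names not written alike, which were left out. Columns took the day and experiment of their plate. A further table of 40 columns matched no sample and was not used. Cells with 500 or more detected genes (2448) were summed by group and experiment. The 12 sums (Day 6 eGFP+ left out) were fitted in edgeR 4.0.16 (R 4.3.3) with filterByExpr (16080 genes), TMM scaling and the experiment as a term (5 residual degrees of freedom), with two-sided tests and p-values adjusted by Benjamini-Hochberg over the tested genes (threshold 0.05). The experiment pairs the sums because the labels name it. DESeq2 1.42.0 and the other settings were alternatives. The fit was tested on simulated sums. Intervals are 95% Wilson intervals. Members and gene lists were chosen with earlier results of these data known. Named list genes are those called, or else the 2 with the smallest p for Day 6 against Day 2. Tgfbr1, Acvr1b, Cer1, Smad2 and Eomes, and the marker genes given with values, fall outside this rule and were chosen after their values were seen.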

Additional observations from a re-analysis of the deposited data

Results flagged for a closer look

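Lefty2 moved in opposite directions in the 2 experiments between Day 2 and Day 3. The log2 ratio of Day 3 to Day 2 CPM was -4.21 for main and 1.60 for pilot cells, and the plates of the 2 days did not overlap in either: 0 to 3.64 against 29.1 to 45.8 CPM in the main, and 64.5 and 184.9 against 10.8 and 63.7 CPM in the pilot experiment. The difference between the experiments was not tested, and the pilot values rest on 5 cells on Day 3 and 6 cells on Day 2.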

How the results depend on the processing

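The number of members called changed with the setting. For Day 6 against Day 2 it was 2 with edgeR as reported, 5 with DESeq2 and with spike-in scaling, 6 with plate sums and with cells holding a read, and 0 to 1 without 1 of the 4 sums. Without the experiment as a replicate block it was 2. For Day 3 against Day 2 it was 2 with plate sums and 3 with cells holding a read, with 0.659% and 1.49% of all genes called lower and 0.979% and 2.71% called higher. DESeq2 called 1 for Day 4 against Day 3 (Tdgf1) and 1 for Day 6 against Day 5 (Lefty1), where edgeR called 0, with 0.504% and 0.485% of all genes lower and 0.46% and 0.317% higher. Of the pilot Day 5 reads of Lefty1, 98% came from 1 cell, without which the level was 0.528 CPM instead of 25.1 CPM. The labels do not say whether plates are separate cultures, and if they are not, the p-values with plate sums are too small. The counts of cells holding a read were summed by group and experiment, as the reads were. Over all genes, 94 rose and 40 fell for Day 6 against Day 2, against 1303 and 732 with DESeq2, 1566 and 1411 with plate sums, 1716 and 1824 with cells holding a read, 84 and 2051 with spike-in scaling and 78 and 29 without the replicate block.

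Signs changed for members that had not passed. For Day 3 against Day 2, Lefty1 became 0.16 without the replicate block, and Lefty2 became -2.02 with plate sums and -2.49 with cells holding a read. For Day 6 against Day 2, Smad7 became -1.26 with spike-in scaling and -0.08 with cells holding a read, and Acvr2b became -0.80 with spike-in scaling. Without 1 sum, the Day 3 against Day 2 changes ran from -2.31 to 0.36 for Nodal, -1.67 to 1.21 for Lefty1 and -4.96 to 1.95 for Lefty2, and the Day 6 against Day 2 change of Smad7 from -1.23 to 2.11. The cause was not tested. A lone sum left in a group was assumed to vary like the others.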
